A study of Mus musculus with 9 samples.

Results

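The transcription factors described here form the regulatory core of gene expression in haploid male germ cells: Crem, Fhl5, Rfx2, Rfx4, Tbpl1, Taf7l, Sox30 and Gtf2a1l. Their members were taken as every array probe whose symbol in the platform's probe annotation was 1 of these 8 genes, which gave 20 of the 45279 probes listed, for 8 of 19057 genes named on the array. RNA of mouse spermatids, the haploid cells that turn into sperm after meiosis, was measured on Illumina Mouse WG-6 bead arrays, on which a fluorescence signal is read for each probe. The genotypes were wild type (Wip1+/+), Wip1-/-, which lacks the phosphatase Wip1 encoded by Ppm1d, and Wip1-/- Atm+/-, which carries 1 allele of the DNA damage kinase gene Atm on the same Wip1-/- background, with 3 arrays each. The sources used here do not give strain, age, the way the spermatids were isolated or the deleted part of either gene. They also do not say whether the triplicates are separate animals, so all p-values measure only spread between arrays, possibly technical, and precision is limited by 3 arrays a group.

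CREM is a transcription factor that binds cAMP response elements, and its activator form switches on many genes of the maturing spermatid. In mice without Crem, spermatids stop at an early step. FHL5, also known as ACT, is a LIM-domain protein of the testis that lends CREM its activation function, and the kinesin KIF17 carries it out of the nucleus. RFX proteins bind X-box motifs in genes of cilia and flagella, and mouse spermatids that lack Rfx2 do not elongate. TBPL1, TAF7L and GTF2A1L are germ cell counterparts of the general transcription factors TBP, TAF7 and TFIIA, and the SOX family protein SOX30 is required for mouse spermatids to develop past the round stage.

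Promoters in the RefSeq table of build GRCm38.p6, which holds 250 bases before and 50 after a gene's start, were available for 7 of the 8 genes as 9 promoters. The gene without one was Crem, so its own promoter was not searched. 5 short motifs were searched on both strands: the cAMP response element TGACGTCA, its core TGACG, which the full element contains, the X-box core GTTGCC, the SOX motif ACAATGG and the TATA box TATAAA. The full element was in 0 of the 7 genes, against 1.79% of all 32851 promoters of the table. The percentages count promoters, whereas Fhl5 and Rfx4 count as 1 gene with 2 promoters each. TGACG was found in 2 genes, Rfx2 and Rfx4 (20.8% of all promoters), GTTGCC in 2, Rfx2 and Gtf2a1l (12.5%), ACAATGG in 1, Rfx4 (3.66%), and TATAAA in 1, Taf7l (13.6%). A match is a description of these letters, not a bound site, and a missing match says nothing of the factor. The 11 known CREM targets listed below were searched too, and 8 had a promoter. Of these 8 genes, 0 held the full element, 0 GTTGCC, 2 TGACG, 2 ACAATGG and 2 TATAAA. Kif17 was the only gene searched outside the factors and these targets, so its matches give no share for other changed genes. The stretches below, of 80 bases each and read 5′ to 3′ on the strand of the gene, show genes whose brightest probe changed (Taf7l, Rfx4 with both of its starts, and Kif17, the carrier of FHL5) and the factors whose promoters hold an X-box core. Capitals mark TATAAA matches on both strands in Taf7l (overlapping), ACAATGG in Rfx4, GTTGCC in Rfx2 and Gtf2a1l, and TGACGTCA followed by GTTGCC in Kif17.
Taf7l, chrX:134476591-134476670, minus strand: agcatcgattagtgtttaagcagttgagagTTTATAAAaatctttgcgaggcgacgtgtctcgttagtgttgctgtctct
Rfx4 start 1, chr10:84755968-84756047, plus strand: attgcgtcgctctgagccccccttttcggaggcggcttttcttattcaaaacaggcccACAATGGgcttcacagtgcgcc
Rfx4 start 2, chr10:84838068-84838147, plus strand: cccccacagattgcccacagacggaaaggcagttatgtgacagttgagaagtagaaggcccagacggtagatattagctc
Rfx2, chr17:56831069-56831148, minus strand: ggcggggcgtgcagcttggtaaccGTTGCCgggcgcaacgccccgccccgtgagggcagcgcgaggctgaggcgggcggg
Gtf2a1l, chr17:88668440-88668519, plus strand: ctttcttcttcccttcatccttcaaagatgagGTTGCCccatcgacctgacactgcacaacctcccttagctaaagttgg
Kif17, chr4:138262141-138262220, plus strand: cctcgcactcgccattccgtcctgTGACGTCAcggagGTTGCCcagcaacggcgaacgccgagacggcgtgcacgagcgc
Counted from the transcription start, the capitals of Taf7l begin at -150, those of Rfx4 at -22, those of Rfx2 at -116, those of Gtf2a1l at -188 and those of Kif17 at -86 and -73. The second start of Rfx4 held none of the 5 motifs in its full 300 bases.

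Median scanner signals were 100.5 to 121.8 and 37.9% to 42.0% of 43582 probes were detected per array. Across genes, log2 levels correlated at 0.987 to 0.993 within a genotype and at 0.958 to 0.982 between genotypes. Round spermatid markers (14 of 15) and elongating spermatid markers (14 of 15) were detected, as the label spermatid implies, but so were 8 of 13 spermatogonium markers and 15 of 19 markers of peritubular, vascular and stromal cells. Of Sertoli, Leydig, immune and erythroid markers, 7 of 14, 1 of 8, 6 of 10 and 3 of 7 were detected. In bulk RNA, fewer cells of a type and less RNA per cell cannot be told apart. Ppm1d, read by its brightest probe, had a log2 level of 9.34 ± 0.18 in wild type, 8.68 ± 0.15 in Wip1-/- and 9.44 ± 0.07 for the third genotype (SD, n = 3 each). It fell by 0.66 in Wip1-/- (SE 0.13, limma adjusted p = 0.00505), while the level in the third genotype was 0.10 above wild type (limma adjusted p = 0.598). A dimmer Ppm1d probe read 6.18, 5.83 and 6.04 in Wip1-/- and was not detected on the arrays of the other genotypes, and the mean of the Ppm1d probes turned the Wip1-/- difference to 0.16. Because the Ppm1d reading there was not below wild type, the third genotype is called the group labelled Wip1-/- Atm+/- throughout. Atm on its brightest probe changed by -0.71 in them and 0.81 in Wip1-/- relative to wild type (limma adjusted p = 0.000431 and 0.000675), and a dimmer probe of the gene was 1.03 higher in them (limma adjusted p = 0.000246 over single probes).

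A probe counts as detected on an array where its detection p-value was under 0.05, and was tested where this held on at least 3 of the 9 arrays. By this rule 13 of the 20 probes were tested, and 6 of the 8 factors. Tbpl1 and Gtf2a1l passed on no probe. A gene is read below by its brightest detected probe, on a normalized log2 scale. A difference of 1 is a doubling of signal above background plus an offset of 16, so changes of dim probes are shrunk. "Rose" and "fell" mean a limma p adjusted over all 10556 genes under 0.05. Levels of different probes cannot be compared, since each probe has its own brightness.

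In Wip1-/- against wild type, Rfx4 and Taf7l rose, so 2 of the 6 tested factors rose and 0 fell, where 19.8% of all genes passed (11.5% higher and 8.37% lower). In the group labelled Wip1-/- Atm+/- against wild type, Rfx4 rose and Taf7l fell, 2 of 6 against 29.4% of all genes (15.5% higher and 13.9% lower). In the group labelled Wip1-/- Atm+/- against Wip1-/-, Taf7l fell, 1 of 6 against 34.8% of all genes (16.7% higher and 18.0% lower). The arrays of both genotypes stood apart for 3, 3 and 3 factors in these comparisons, while 38.0%, 41.3% and 49.3% of all genes did so. The median change of the 6 factors was 0.25, -0.09 and -0.15, beside 0.04, -0.03 and -0.02 over all genes. The 3 comparisons share arrays, so they are not independent of each other. Crem, Fhl5, Rfx2 and Sox30 passed in none of the 3 comparisons.

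**Figure D1:**
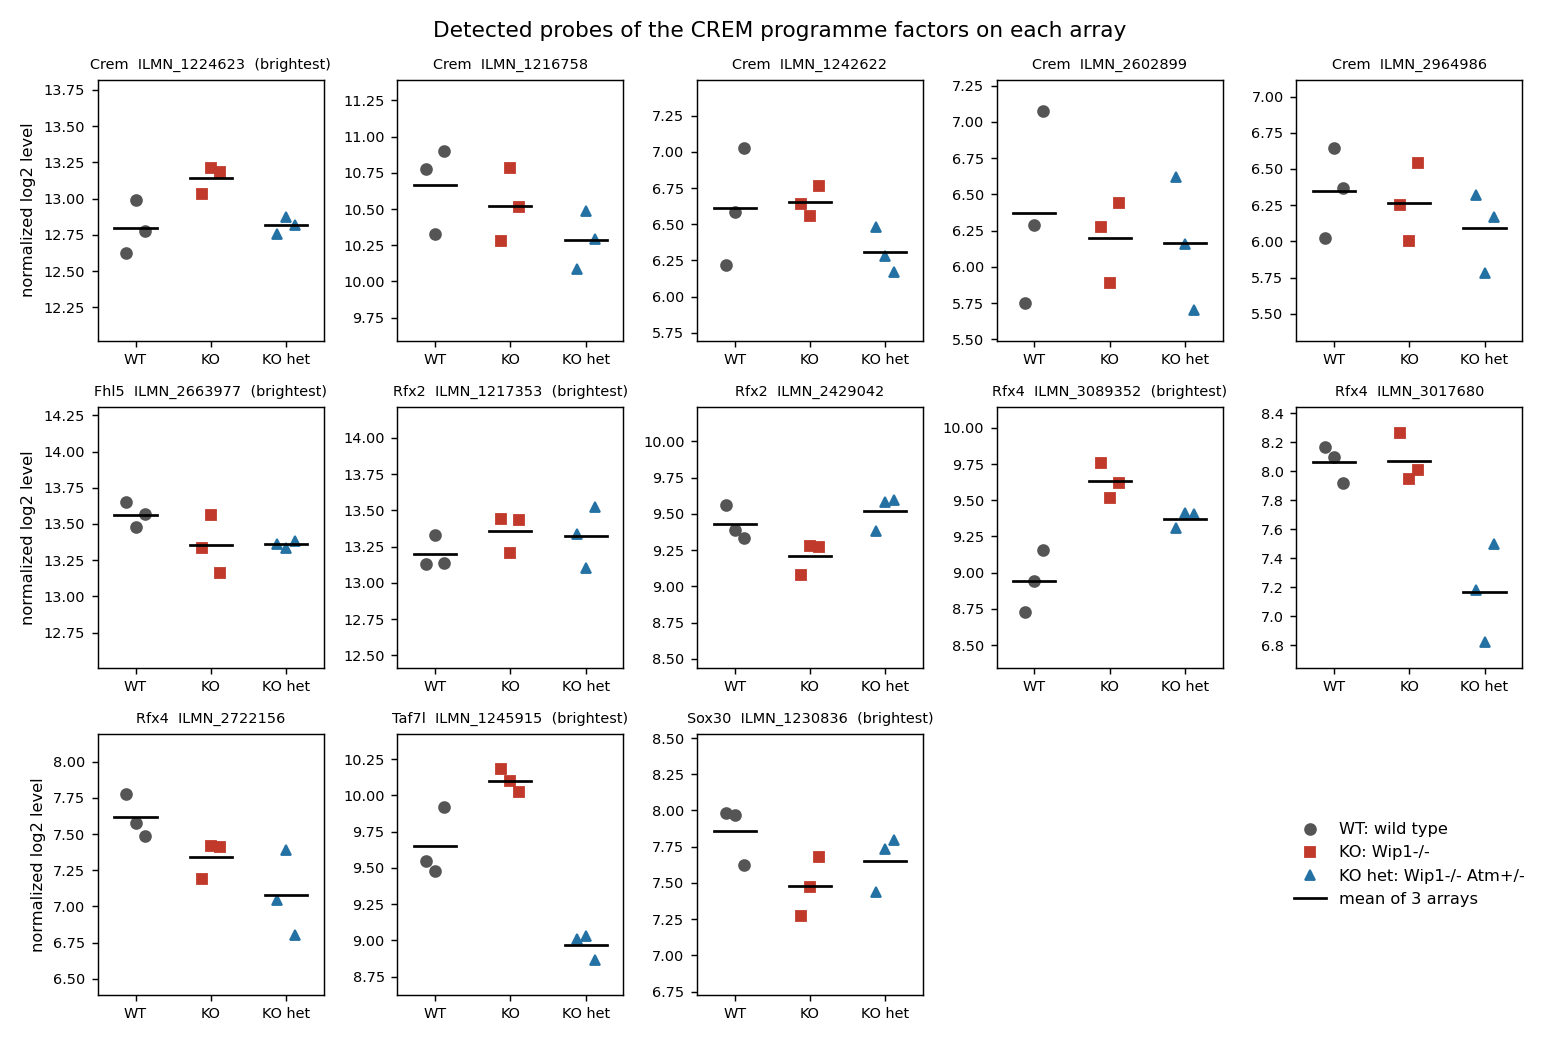
Normalized log2 level (vertical axis, 1 panel per probe) of the 13 detected probes on each of the 9 arrays, where points are arrays and bars are the mean of 3. Taf7l separates all 3 genotypes, from 8.97 in the group labelled Wip1-/- Atm+/- (KO het) to 10.10 in Wip1-/- (KO), while the Rfx4 probes differ in order.

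Crem was read by 7 probes, of which 5 were tested. The brightest, ILMN_1224623, was designed on the cDNA AK015641 and the others on the RefSeq transcript NM_013498. Its log2 level was 12.63, 12.99 and 12.78 on the wild type arrays, 13.03, 13.21 and 13.18 on the Wip1-/- arrays and 12.76, 12.87 and 12.82 on the group labelled Wip1-/- Atm+/-. All 3 Wip1-/- arrays lay above all others, although the lowest exceeded the highest wild type array by little, and the other genotypes overlapped. The difference was 0.34 (SE 0.12, limma adjusted p = 0.0681) between Wip1-/- and wild type and -0.33 (SE 0.12, limma adjusted p = 0.0562) between the group labelled Wip1-/- Atm+/- and Wip1-/-, so neither passed. Against wild type the group labelled Wip1-/- Atm+/- differed by 0.02 (limma adjusted p = 0.937). Other settings moved the first difference across the threshold in 5 of 21 alternatives and the second in 9 of 21. With the mean of the detected Crem probes, however, the Wip1-/- difference from wild type was -0.0017 (limma adjusted p = 0.995). That of the group labelled Wip1-/- Atm+/- was then -0.23 (limma adjusted p = 0.261). On the authors' processed values of the same probe the differences were 0.33 and -0.31, and both passed (limma adjusted p = 0.0354 and 0.0271 over single probes). These values are also among the alternatives counted above as crossing the threshold.

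The other Crem probes passed in no comparison. ILMN_1216758 stood at 10.78, 10.33 and 10.90 in wild type, 10.28, 10.78 and 10.51 in Wip1-/- and 10.08, 10.48 and 10.29 in the group labelled Wip1-/- Atm+/-, so the genotypes overlapped. Its largest difference was -0.38, for the group labelled Wip1-/- Atm+/- against wild type (SE 0.18, limma adjusted p = 0.147 over single probes). ILMN_1242622, ILMN_2602899 and ILMN_2964986 were dim, with group means of 6.09 to 6.65. ILMN_1242622 averaged 6.61 in wild type and 6.65 in Wip1-/-, whose 3 arrays lay above the 3 labelled Wip1-/- Atm+/- (a difference of -0.35, limma adjusted p = 0.176 over single probes). ILMN_2747264 was detected on 1 Wip1-/- array and 1 array labelled Wip1-/- Atm+/-, and ILMN_1244890 on 0 of 9. The Crem gene makes activator and repressor transcripts from several starts and by splicing, and the sources used here do not say which of them each probe reads.

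Fhl5, the CREM coactivator, was bright on every array. Its only probe, ILMN_2663977, read 13.65, 13.48 and 13.57 in wild type, 13.33, 13.56 and 13.16 in Wip1-/- and 13.36, 13.34 and 13.38 in the group labelled Wip1-/- Atm+/-. The 3 arrays labelled Wip1-/- Atm+/- were all below wild type, and 1 Wip1-/- array lay among the wild type arrays. Both differences from wild type were small, at -0.21 in each case (SE 0.12, limma adjusted p = 0.243 for Wip1-/- and 0.238 for the group labelled Wip1-/- Atm+/-). The 2 mutant groups differed by 0.01 (limma adjusted p = 0.969). Scaled by array medians instead, Fhl5 would have passed as lower in both, at -0.41 (limma adjusted p = 0.0461) and -0.38 (limma adjusted p = 0.0458), a scaling that also moved the median of all genes to 0.11 and -0.15.

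Rfx2 was likewise bright on every array with its probe ILMN_1217353, at 13.13, 13.33 and 13.13 in wild type, 13.44, 13.20 and 13.43 in Wip1-/- and 13.34, 13.10 and 13.53 in the group labelled Wip1-/- Atm+/-. The genotypes overlapped in all 3 comparisons, and the differences were 0.16, 0.12 and -0.04 (SE 0.13 each, limma adjusted p = 0.434, 0.536 and 0.862). A dimmer probe, ILMN_2429042, read 9.56, 9.39 and 9.33 in wild type, 9.08, 9.28 and 9.27 in Wip1-/- and 9.38, 9.58 and 9.60 in the group labelled Wip1-/- Atm+/-. Here the Wip1-/- arrays were below both other genotypes without overlap. The differences were -0.22 from wild type and 0.31 between the group labelled Wip1-/- Atm+/- and Wip1-/- (limma adjusted p = 0.247 and 0.0739 over single probes). On the authors' processed values the second came to 0.26 (limma adjusted p = 0.0492 over single probes).

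Rfx4, an RFX factor of brain and testis, was read differently by its probes. Its 3 detected probes passed in 5 of their 9 comparisons, 2 of them higher and 3 lower, where 17.7%, 28.1% and 33.6% of all detected probes passed in the 3 comparisons when tested singly. The brightest, ILMN_3089352, read 8.73, 8.94 and 9.16 in wild type, 9.76, 9.52 and 9.62 in Wip1-/- and 9.31, 9.41 and 9.40 in the group labelled Wip1-/- Atm+/-. The 3 genotypes did not overlap, with wild type lowest and Wip1-/- highest. It rose by 0.69 in Wip1-/- (SE 0.13, limma adjusted p = 0.00411) and by 0.43 in the group labelled Wip1-/- Atm+/- (SE 0.13, limma adjusted p = 0.0263), and these 2 groups differed by -0.26 (limma adjusted p = 0.146).

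A second probe of the same Rfx4 transcript, NM_001024918, gave another picture. ILMN_3017680 read 8.17, 8.10 and 7.92 in wild type, 8.27, 7.94 and 8.01 in Wip1-/- and 7.18, 6.82 and 7.50 in the group labelled Wip1-/- Atm+/-. Wild type and Wip1-/- overlapped and differed by 0.01, while all 3 arrays labelled Wip1-/- Atm+/- lay below them. The fall was 0.90 against wild type (change -0.90, SE 0.17, limma adjusted p = 0.00241 over single probes) and as large against Wip1-/- (limma adjusted p = 0.00193 over single probes). ILMN_2722156, designed on the transcript NM_027689, read 7.78, 7.58 and 7.49 in wild type, 7.19, 7.42 and 7.41 in Wip1-/- and 7.05, 7.39 and 6.80 in the group labelled Wip1-/- Atm+/-. It fell by 0.53 from wild type to the group labelled Wip1-/- Atm+/- (SE 0.16, limma adjusted p = 0.0259 over single probes), with no overlap. Its difference of -0.28 in Wip1-/- did not pass (limma adjusted p = 0.255 over single probes), although the 3 Wip1-/- arrays lay below all wild type arrays. ILMN_2452978 and ILMN_2745712 were detected on 0 of 9 arrays.

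The direction of Rfx4 therefore depended on the probe in the group labelled Wip1-/- Atm+/-. In Wip1-/- only the brightest probe passed, and the others differed from wild type by 0.01 and -0.28. The mean of its detected probes was 0.14 above wild type in Wip1-/- (limma adjusted p = 0.303) and 0.33 lower in the group labelled Wip1-/- Atm+/- (change -0.33, limma adjusted p = 0.0169). The rise of the brightest probe in the group labelled Wip1-/- Atm+/- also missed the threshold without wild type replicate 1 (0.33, limma adjusted p = 0.09), without wild type replicate 2 (0.43, 0.0581), without the replicate 2 labelled Wip1-/- Atm+/- (0.42, 0.0693) or without its replicate 3 (0.42, 0.0758), and with median scaling (0.23, 0.197). The rise of the brightest probe in Wip1-/- passed in 20 of 21 alternatives, all of which read Rfx4 by that same probe. The exception was the mean of the detected probes.

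**Figure D2:**
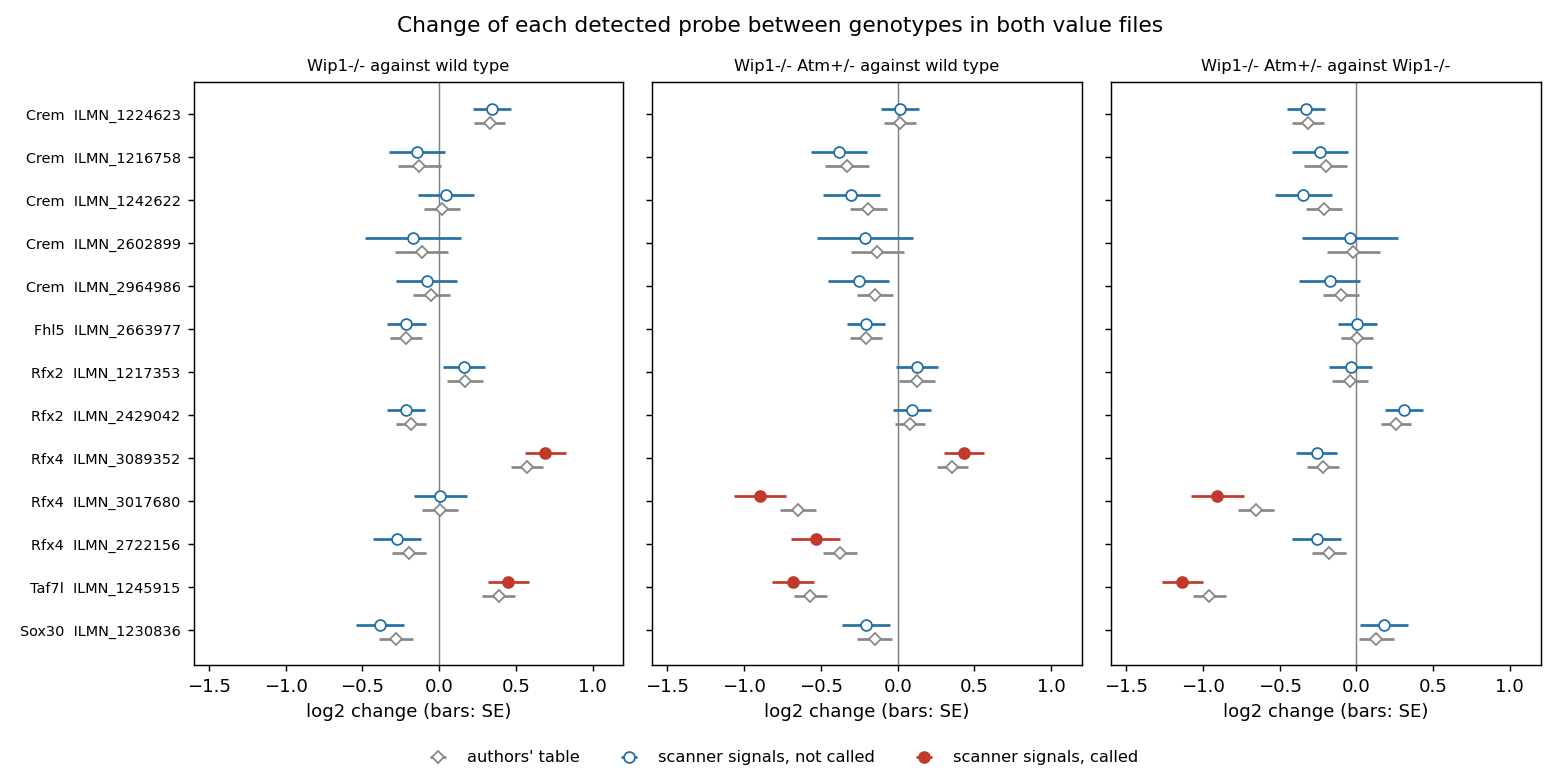
Log2 change and its SE (horizontal axis) of the 13 detected probes in the 3 comparisons, from the scanner signals (circles, filled where the limma p adjusted over all detected probes was under 0.05) and from the authors' processed table (diamonds, not marked for passing). The 3 Rfx4 probes point in different directions, and Taf7l changes by 0.45, -0.68 and -1.13.

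Taf7l, the X-linked germ cell counterpart of the TFIID subunit TAF7, was the only factor that passed in all 3 comparisons. Its probe ILMN_1245915 read 9.55, 9.48 and 9.92 in wild type, 10.18, 10.10 and 10.03 in Wip1-/- and 9.01, 9.03 and 8.87 in the group labelled Wip1-/- Atm+/-. No 2 genotypes overlapped, and the mutant groups lay on opposite sides of wild type. On the scanner before normalization the same probe gave signals of 782 to 1079 in wild type, 1176 to 1480 in Wip1-/- and 461 to 577 in the group labelled Wip1-/- Atm+/-. Taf7l rose by 0.45 in Wip1-/- (SE 0.13, limma adjusted p = 0.0346). It fell in the group labelled Wip1-/- Atm+/- by 0.68 against wild type (SE 0.13, limma adjusted p = 0.00249) and by 1.13 against Wip1-/- (SE 0.13, limma adjusted p = 7.08e-05), which is a level 2.19-fold lower on the normalized scale. The authors' processed values gave 0.39, -0.57 and -0.96.

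Both falls of Taf7l passed in 21 of 21 alternatives, and the rise in Wip1-/- in 14 of 21. The rise missed the threshold without wild type replicate 1 (0.40, limma adjusted p = 0.0979) or replicate 2 (0.37, 0.104), and without Wip1-/- replicate 1 (0.41, 0.115), replicate 2 (0.45, 0.079) or replicate 3 (0.49, 0.0654). It also missed it in a fit on only the 2 genotypes compared (limma adjusted p = 0.0567) and with the replicate number as a block (limma adjusted p = 0.0619). In mice Taf7l is also expressed in spermatogonia and spermatocytes, and markers of these cells were read beside it. The summed linear level of the 8 tested spermatogonium markers was 1752 to 2005 in wild type, 2225 to 2432 in Wip1-/- and 814 to 905 in the group labelled Wip1-/- Atm+/-. Such a sum weighs the brightest gene most, here the RNA-binding protein gene Dazl, at mean log2 levels of 9.65, 10.22 and 8.02. Of the 8 markers, 7 fell in the group labelled Wip1-/- Atm+/- against each other genotype, where 29.4% and 34.8% of all genes passed. Sall4, among the 7, was detected on no array of that group, so it was tested only through the other genotypes. In Wip1-/- 1 rose and 0 fell (Dazl, by 0.58, against a list median of 0.05), beside 19.8% of all genes. Dmrt1, Nanos3, Stra8 and Lin28a stayed below the detection rule. Spermatocyte markers summed to 20888 to 24055, 23127 to 25993 and 18833 to 20980 over 11 tested, the wild type range overlapping both others, and Sycp3, Hormad1 and Dmc1 were detected on 0 arrays. Of these 11, 1 rose and 2 fell in Wip1-/- against wild type, 0 rose and 4 fell in the group labelled Wip1-/- Atm+/- against wild type, and 2 rose and 4 fell against Wip1-/-. Syce2 and Sycp1, genes of the synaptonemal complex, ran opposite to Taf7l: they fell by 0.87 and 0.76 in Wip1-/- (limma adjusted p = 0.0219 and 0.0307) and rose by 1.37 and 0.83 from there to the group labelled Wip1-/- Atm+/- (limma adjusted p = 0.000779 and 0.0114). The 4 that fell between the mutant groups ran the same way as Taf7l. They were Meiob (-1.69), Cntd1 (-1.04), Ccna1 (-0.69) and Spo11 (-0.60), so the list had no single order. The part of these marker lists in the Taf7l values was not tested.

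Tbpl1 and Gtf2a1l, the germ cell counterparts of TBP and of a TFIIA subunit, could not be followed on these arrays. The only Tbpl1 probe, ILMN_2605872, gave scanner signals of 73.1 to 100.6 and was detected on 0 of 9 arrays. The only Gtf2a1l probe, ILMN_2594502, was detected on 1 array, Wip1-/- replicate 2, at a signal of 135.7, and read 94.6 to 112.1 on the other 8. A probe under the detection limit shows only that these probes gave no signal above background, not that the transcripts were missing.

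**Figure D3:**
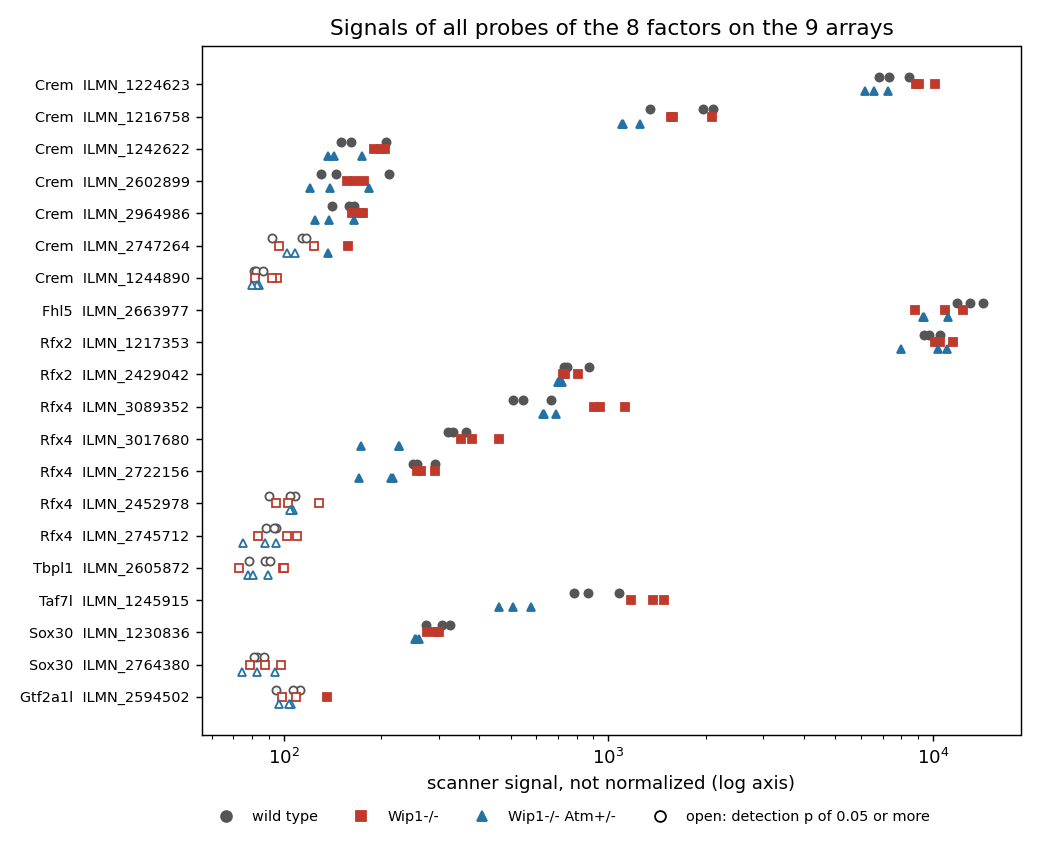
Scanner signal before normalization (horizontal log axis) of all 20 probes on the 9 arrays, with 1 point per array, open where the detection p-value was 0.05 or more. Tbpl1, 2 Rfx4 probes, 1 Crem probe and 1 Sox30 probe are open on every array, and Gtf2a1l is filled on 1.

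Sox30, the SOX factor of the haploid phase, was read by ILMN_1230836 at 7.98, 7.97 and 7.62 in wild type, 7.27, 7.47 and 7.68 in Wip1-/- and 7.43, 7.73 and 7.80 in the group labelled Wip1-/- Atm+/-. The genotypes overlapped in every comparison. The differences were -0.38, -0.20 and 0.18 (SE 0.15 each, limma adjusted p = 0.104, 0.356 and 0.399), and they passed in 0 of the 21 alternatives in any of the 3 comparisons. A second probe, ILMN_2764380, was detected on 0 of 9 arrays.

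The paralogues of the factors that act in other tissues or in all cells were examined beside them. Of 18 such genes 13 were tested: 3 rose and 0 fell in Wip1-/-, 3 rose and 2 fell in the group labelled Wip1-/- Atm+/- against wild type, and 2 rose and 4 fell against Wip1-/-. The shares of all genes that passed were 19.8%, 29.4% and 34.8%. Fhl2, a LIM-domain coactivator of heart and other tissues, had the largest changes. It read 6.96, 7.09 and 6.77 in wild type, 7.61, 7.74 and 7.85 in Wip1-/- and 9.32, 9.63 and 9.34 in the group labelled Wip1-/- Atm+/-, with no overlap between any genotypes. It rose by 0.79 and 2.49 against wild type (SE 0.13, limma adjusted p = 0.00238 and 1.05e-07) and by 1.70 against Wip1-/- (limma adjusted p = 4.58e-06), where Fhl5 differed by -0.21, -0.21 and 0.01. Fhl4, a testis LIM-domain gene close to Fhl5, differed by -0.33, -0.06 and 0.27 and passed in no comparison. Of the peritubular, vascular and stromal markers 15 were tested, and 11 rose and 0 fell in each mutant group against wild type, where 19.8% and 29.4% of all genes passed. Col1a2 and Col3a1 were detected only in the group labelled Wip1-/- Atm+/-, and Cdh5, Tek and Eng on no wild type array. These genes met the detection rule only through groups where they were higher, so their rises are not independent of that rule. Between the mutant groups 10 rose and 3 fell in the one labelled Wip1-/- Atm+/-, the 3 being the endothelial genes Cldn5, Tek and Cdh5, so the list had no single order. The summed level of the 15 markers was 5024 to 5147 in wild type, 11677 to 12752 in Wip1-/- and 26930 to 27001 in the group labelled Wip1-/- Atm+/-, with Acta2, the smooth muscle actin gene, at log2 levels of 11.58, 12.88 and 14.02. Acta2 was the brightest of these markers and weighs most in the sum. Cnn1 was detected on 0 arrays, and the markers' part in the Fhl2 values was not tested.

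Within the RFX family, the paralogues of Rfx2 that are expressed more widely moved apart in the group labelled Wip1-/- Atm+/-. Rfx1 rose by 0.87 against wild type and 0.66 against Wip1-/- (SE 0.15, limma adjusted p = 0.00125 and 0.00585), but a second Rfx1 probe differed by 0.02 and -0.10 and did not pass. Rfx3, a factor of ciliated cells, read 8.95, 8.59 and 8.55 in wild type, 8.69, 8.50 and 8.40 in Wip1-/- and 7.80, 7.95 and 8.13 in the group labelled Wip1-/- Atm+/-. It fell by 0.74 and 0.57 (SE 0.14, limma adjusted p = 0.00267 and 0.0104), all 3 arrays being below both other genotypes. Rfx6, the paralogue set beside Rfx4, rose by 0.57 in Wip1-/- (limma adjusted p = 0.0439), then fell by 0.50 from there in the group labelled Wip1-/- Atm+/- (limma adjusted p = 0.0471). Rfx8 fell by 0.31 between the same groups (limma adjusted p = 0.0341).

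Creb1, the CREM relative of most cells, fell by 0.56 in the group labelled Wip1-/- Atm+/- against wild type (SE 0.17, limma adjusted p = 0.0294), whereas Atf1 passed in no comparison, at 0.08, -0.31 and -0.39. Sox6 was not detected on the wild type arrays. It was at least 1.08-fold higher in Wip1-/- (measured means 5.63 and 4.92, limma adjusted p = 0.00384). Sox6 met the detection rule only through groups where it was higher, so its rise is not independent of that rule. It is among the paralogues counted above as risen against wild type. Sox5 differed by 0.21, 0.10 and -0.11 on its brightest probe and passed in no comparison, while a dim Sox5 probe rose by 1.39 from wild type to the group labelled Wip1-/- Atm+/- (limma adjusted p = 0.000273 over single probes). Taf7, the counterpart of Taf7l, had 3 probes, none detected on any array.

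The subunits of TFIIA and TFIID, the general factors to which Tbpl1, Taf7l and Gtf2a1l are related, were tested for 10 of 18 genes. In Wip1-/- against wild type 0 passed, in the group labelled Wip1-/- Atm+/- 1 fell against wild type and 2 fell against Wip1-/-, and 0 rose. Among all genes 19.8%, 29.4% and 34.8% passed in these comparisons. Taf3, a TFIID subunit that reads a histone mark at promoters, fell by 0.74 and 0.82 (SE 0.13, limma adjusted p = 0.00139 and 0.000628), from 6.99, 6.90 and 6.55 in wild type and 6.89, 6.83 and 6.95 in Wip1-/- to 5.95, 6.16 and 6.10. Tbp, the TATA-binding protein, fell by 0.34 against Wip1-/- on its brightest probe (limma adjusted p = 0.0342), which differed by -0.09 from wild type. The dimmer Tbp probes ILMN_1234361 and ILMN_2626740 were lower against wild type too (-0.43 and -0.45, limma adjusted p = 0.0298 and 0.0191 over single probes). ILMN_2454677 differed by -0.08 there (0.747). Gtf2a1 differed by -0.14, -0.12 and 0.02 and did not pass.

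Of 11 listed known targets of CREM 10 were tested. In Wip1-/- against wild type 0 rose and 2 fell, with a median of -0.04, where 19.8% of all genes tested were called. Camk4, a calcium-dependent kinase that phosphorylates CREM, read 7.51, 7.46 and 7.61 in wild type, 6.86, 6.97 and 6.86 in Wip1-/- and 7.91, 7.68 and 7.81 in the group labelled Wip1-/- Atm+/-. It fell by 0.63 in Wip1-/- (SE 0.11, limma adjusted p = 0.00277), below all other arrays, and stood 0.90 higher in the group labelled Wip1-/- Atm+/- than in Wip1-/- (limma adjusted p = 8.88e-05). Tnp2, a transition protein that replaces histones, fell by 0.49 in Wip1-/- (SE 0.11, limma adjusted p = 0.00843) and rose by 0.47 from there (limma adjusted p = 0.00493), which brought it to -0.02 from wild type.

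In the group labelled Wip1-/- Atm+/- against wild type, 1 CREM target rose and 1 fell, with a median of 0.01 and 29.4% of all genes called. Ace, whose testis form starts from a promoter inside the gene, rose by 0.62 on its brightest probe (SE 0.11, limma adjusted p = 0.00156), but 2 other Ace probes differed by -0.03 and -0.14. Cyp51, a sterol demethylase, fell by 0.73 (SE 0.11, limma adjusted p = 5e-04), from 10.76, 10.94 and 10.73 in wild type to 10.14, 10.07 and 10.04. Against Wip1-/-, 3 targets rose (Camk4, Tnp2 and Ace) and 2 fell, Cyp51 by 0.69 and Acr, an acrosomal protease, by 0.40 (limma adjusted p = 0.000681 and 0.0255), with a median of 0.03 and 34.8% of all genes called. A dimmer Acr probe was also lower against wild type (-0.66, limma adjusted p = 0.00404 over single probes), where the brightest differed by -0.26 (limma adjusted p = 0.135). Of 14 tested elongating spermatid markers, which include Tnp2, 0 rose and 4 fell in Wip1-/- against wild type, and 6 rose and 0 fell from Wip1-/- to the group labelled Wip1-/- Atm+/-. Against wild type, 1 rose and 0 fell in the group labelled Wip1-/- Atm+/-. The shares of all genes that passed in these comparisons were 19.8%, 34.8% and 29.4%, in the order given. The summed level of the markers was 310469 to 324646 in wild type, 292476 to 297078 in Wip1-/- and 324864 to 334445 in the group labelled Wip1-/- Atm+/-, and their part in the values of the CREM targets was not tested.

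Listed RFX targets, which are genes of cilia and flagella and the linker histone gene H1f6, were all 9 tested. Their promoters were not searched for the X-box core. In Wip1-/- against wild type 2 rose and 1 fell, in the group labelled Wip1-/- Atm+/- 1 rose against wild type, and 2 rose and 3 fell against Wip1-/-, with medians of 0.13, 0.14 and 0.03. All genes passed at 19.8%, 29.4% and 34.8%, with medians of 0.04, -0.03 and -0.02. Ift172, a subunit of the transport complex inside flagella, read 14.21, 14.20 and 13.83 in wild type, 13.68, 13.48 and 13.69 in Wip1-/- and 14.23, 14.34 and 14.22 in the group labelled Wip1-/- Atm+/-. It fell by 0.46 in Wip1-/- (SE 0.13, limma adjusted p = 0.0292) and rose by 0.65 from there (limma adjusted p = 0.00266), and its 2 other probes gave -0.67 and -0.61, then 0.65 and 0.85. Bbs4, a protein of the ciliary base, rose by 0.54 in Wip1-/- and 0.40 in the group labelled Wip1-/- Atm+/- against wild type (SE 0.11, limma adjusted p = 0.00546 and 0.015). Spag6l, of the central apparatus of the sperm tail, rose by 0.36 in Wip1-/- (limma adjusted p = 0.0394), then fell by 0.67 from there (limma adjusted p = 0.000736). Tekt1, a tektin of the axoneme, and Rsph1, of the radial spokes, fell by 0.53 and 0.40 between these groups, and Ift122 rose by 0.47. A dimmer Tekt1 probe differed by -0.19 and did not pass (limma adjusted p = 0.351 over single probes). A dimmer Spag6l probe differed by 0.22 in Wip1-/- and by -0.41 from there. It passed in neither (limma adjusted p = 0.399 and 0.0833 over single probes).

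**Figure D4:**
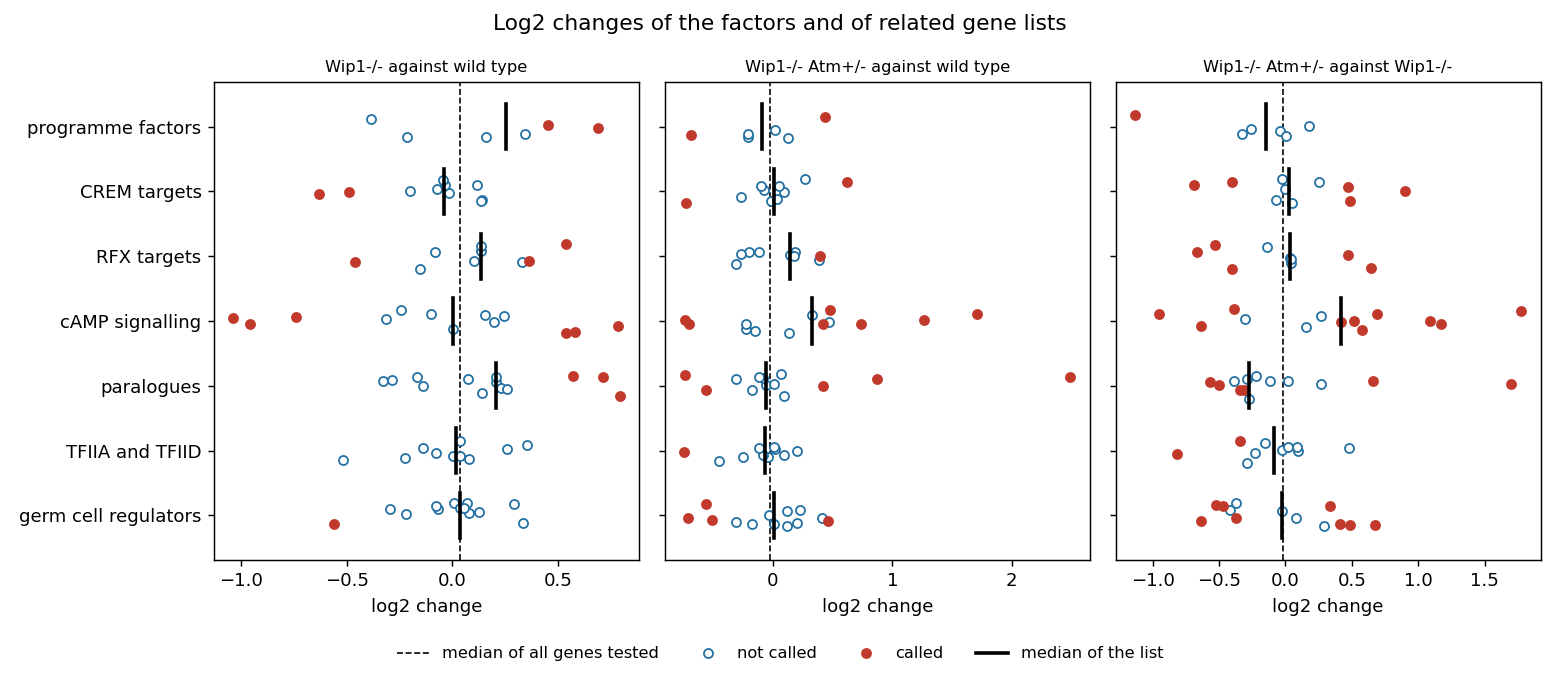
Log2 change (horizontal axis) of each tested gene of the programme factors and 6 related lists in the 3 comparisons, with 1 point per gene, filled where it passed, a bar at the list's median and a dashed line at the median of all genes. The cAMP signalling list has the widest spread below 0 in Wip1-/-, down to -1.04 for Kif17, and a median of 0.42 in the group labelled Wip1-/- Atm+/- against Wip1-/-.

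Signalling and co-regulator genes that act on CREM include kinases, a carrier and coactivators. Of 15 such genes 13 were tested: 3 rose and 3 fell in Wip1-/- (median 0.00), 5 rose and 2 fell in the group labelled Wip1-/- Atm+/- against wild type (median 0.33), and 7 rose and 3 fell against Wip1-/- (median 0.42). Over all genes 19.8%, 29.4% and 34.8% passed, with medians of 0.04, -0.03 and -0.02. Kif17, the kinesin that carries FHL5 out of the nucleus, read 8.90, 9.39 and 8.75 in wild type, 8.10, 7.80 and 8.04 in Wip1-/- and 9.89, 9.51 and 9.86 in the group labelled Wip1-/- Atm+/- on its brightest probe. The genotypes did not overlap. It fell by 1.04 in Wip1-/- (SE 0.18, limma adjusted p = 0.00254), rose by 0.74 from wild type to the group labelled Wip1-/- Atm+/- (limma adjusted p = 0.00821), and differed by 1.78 between the mutant groups (limma adjusted p = 2.22e-05). Its other probes did not follow alike: ILMN_1237897 gave -0.46, 0.25 and 0.71, the last with a limma adjusted p of 0.0482 over single probes, and ILMN_1251085 rose by 1.02 in Wip1-/- and 1.14 in the group labelled Wip1-/- Atm+/- (limma adjusted p = 0.00205 and 0.000353 over single probes). The fall of Kif17 in Wip1-/- therefore held on 1 of its 3 probes and was turned on another.

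Protein kinase A, which phosphorylates CREM, changed subunit by subunit. Prkacb, a catalytic subunit, read 8.26, 8.53 and 8.41 in wild type, 9.13, 8.92 and 8.75 in Wip1-/- and 10.01, 10.16 and 10.15 in the group labelled Wip1-/- Atm+/-, so it rose by 0.54 and 1.71 against wild type (SE 0.13, limma adjusted p = 0.0144 and 1.57e-06). The regulatory subunit Prkar1a rose by 0.58 and 1.27 (SE 0.12, limma adjusted p = 0.00757 and 1.26e-05) on its brightest probe. A dim second Prkar1a probe differed by 0.39 and -0.09 from wild type (limma adjusted p = 0.138 and 0.739 over single probes) and fell by 0.48 between the mutant groups (0.0487), the other direction from the brightest probe. Prkar2a, the regulatory subunit of sperm flagella, fell by 0.96 in Wip1-/- (SE 0.13, limma adjusted p = 0.000843) and differed by 0.13 from wild type in the group labelled Wip1-/- Atm+/- (limma adjusted p = 0.495). Prkaca, the main catalytic subunit of sperm, fell by 0.38 from Wip1-/- to the group labelled Wip1-/- Atm+/- (limma adjusted p = 0.0388). A dimmer Prkaca probe differed by -0.15 there and did not pass (limma adjusted p = 0.414 over single probes).

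Among the enzymes that make and remove cAMP, Pde4d, a phosphodiesterase, fell by 0.74 in Wip1-/- on its brightest probe (SE 0.18, limma adjusted p = 0.015) and differed by -0.02 on a dimmer one (limma adjusted p = 0.958 over single probes). Adcy10, the soluble adenylyl cyclase of sperm, rose by 0.42 from wild type to the group labelled Wip1-/- Atm+/- (limma adjusted p = 0.0129). Of the coactivators of CREB proteins, the acetyltransferase gene Ep300 rose by 0.78 and 0.48 against wild type in the 2 mutant groups (limma adjusted p = 0.0058 and 0.0385). Crtc1, a coactivator that binds CREB family members, fell by 0.74 from wild type to the group labelled Wip1-/- Atm+/- (limma adjusted p = 0.00254). Ppp1cc, the germ cell phosphatase, fell by 0.71 there (SE 0.12, limma adjusted p = 0.000839), all 3 arrays being below both other genotypes.

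Other transcription and mRNA regulators of male germ cells were tested for 13 of 19 genes. In Wip1-/- 0 rose and 1 fell, Spz1, a bHLH-zip factor of the testis, by 0.56 (SE 0.16, limma adjusted p = 0.0278). In the group labelled Wip1-/- Atm+/- against wild type, Brdt, a bromodomain protein of male germ cells, rose by 0.46 (limma adjusted p = 0.00919), and Sohlh1, Ybx3 and Dmrtb1 fell. A second, dimmer Brdt probe went the other way, at -0.22 against wild type (limma adjusted p = 0.165 over single probes) and -0.32 against Wip1-/- (0.0406), so the direction of Brdt depends on the probe. Sohlh1, a factor of spermatogonia, fell by 0.56 and Ybx3, a germ cell mRNA-binding protein, by 0.51 (limma adjusted p = 0.00763 and 0.00496). Dmrtb1 was not detected in the group labelled Wip1-/- Atm+/- and was at least 1.15-fold lower (measured means 5.01 and 5.72, limma adjusted p = 0.005). Dmrtb1 was tested only through the other genotypes, so its fall is not independent of the detection rule. Against Wip1-/- 4 rose and 4 fell.

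Genes whose log2 levels followed a factor most closely over the 9 arrays were listed as a description, since the arrays of a genotype share its changes. Taf7l was followed by Meiob (r = 0.99), a meiotic recombination protein that is also among the spermatocyte markers, Xlr4a (r = 0.98), an X-linked gene of the Xlr family, and Ercc6l2 (r = 0.98), a helicase-like gene. Meiob changed by 0.60, -1.09 and -1.69 in the 3 comparisons and Xlr4a by 0.63, -0.89 and -1.52. Rfx4, by its brightest probe, was followed by Tmtc2, Lrif1 and Tmx4 (r = 0.98, 0.98 and 0.97), Crem by Agap3, Map3k1 and Arf3 (r = 0.96, 0.93 and 0.93), and Fhl5 by Dhx16, Prkag2 and Alg11 (r = 0.93, 0.92 and 0.90). The closest genes were Tfe3, Cog1 and Dnali1 for Rfx2 (r = 0.96, 0.94 and 0.93) and Dhx58, Trp53i11 and Cdc34 for Sox30 (r = 0.93, 0.92 and 0.91). Between the factors themselves, r ranged from -0.77 for Rfx4 with Sox30 to 0.66 for Crem with Rfx4.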

How the data were processed

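Scanner values were deposited as a signal intensity per probe and array, non-normalized per the file headers, beside a detection p-value. A second table of the authors gives processed intensity values on a linear scale, which by their shared distribution were quantile normalized with no background removed. Its log2 values served as an alternative. Per the labels' protocols, biotinylated cRNA was made with an Ambion kit. The sources used here do not name the scanner software. Detection p-values without a decimal point (895 cells) were taken as thousandths. Of 45279 probes, 1697 with blank scanner cells were not used, none of them a probe of the 8 factors. The platform annotation gave 1 symbol to 34885 probes, several to 18 and none to 10376. The RefSeq gene table changed 0 of the symbols. Arrays were grouped by their genotype label, and 0 columns of per-array values stayed unused.

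Signals were background corrected from the detection p-values and quantile normalized (neqc, limma 3.58.1, R 4.3.3) with an offset of 16, which shrinks changes of dim probes. Probes with detection p under 0.05 on at least 3 of 9 arrays were kept (18867), and each gene was tested by its brightest kept probe (10556 genes). lmFit and eBayes fitted 1 mean per genotype to all 9 arrays (6 residual and 5.14 prior degrees of freedom), two-sided, with Benjamini-Hochberg adjustment at 0.05. The other probes came from the same fit over single probes. The script was tested on simulated data. Alternatives covered background, scaling, offset, filter, choice of probe, samples fitted, replicate block, array weights and each array left out. The factors and gene lists were chosen with earlier results of these data known. Genes named are all 8 factors with every probe, Ppm1d, Atm, the tested paralogues paired with a factor, up to 4 passing genes per list and comparison with the largest change (up to 2 for cell type markers), and the 3 genes that correlate best with each factor. Cldn5, Tek, Cdh5, Eng, Col1a2, Col3a1, Acta2, Sall4, H1f6, Syce2, Sycp1, Acr, Rsph1, Rfx8, Adcy10, Prkaca, the undetected markers and the dimmer probes of genes that are not factors were named outside this rule, after their values were seen. Cntd1, Ccna1 and Spo11 were named in the same way. A bound ("at least") sets the brighter group's mean against the lowest signal detected on the dim arrays, or the dim probe's own level where higher.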

Additional observations from a re-analysis of the deposited data

How the results depend on the processing

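Counts of passing factors were small, so a single call moves them. In Wip1-/- against wild type 2 factors passed, and 1 with the mean of a gene's detected probes, with only the genotypes compared in the fit and with the replicate block. In the group labelled Wip1-/- Atm+/- against Wip1-/- 1 passed, 3 with median scaling, and 2 with no background correction, an offset of 50, the authors' processed table, detection on all 9 arrays, the mean of probes, only the genotypes compared, or array weights. With each array left out in turn, the counts ran from 1 to 2 in all 3 comparisons, while the counts over all genes ran from 1211 to 2059, 2419 to 2949 and 2859 to 3791. The lowest of these, 1211 and 1255 in Wip1-/- against wild type, came without Wip1-/- replicate 1 and replicate 3. Tested singly, 3333, 5307 and 6345 probes passed. Median scaling moved the median of all genes to 0.11, -0.15 and -0.21 and the share of passing genes that were higher from 57.8%, 52.7% and 48.1% to 71.7%, 35.0% and 25.8%.

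The mean of detected probes turned 6 differences: Rfx4 (-0.33), Atm (0.24) and Taf5 (-0.45) in the group labelled Wip1-/- Atm+/- against wild type, Ppm1d in Wip1-/- (0.16) and between the mutant groups (-0.19), and Sox5 between the mutant groups (0.49). In each, probes of 1 gene disagreed. No other alternative reversed a named gene that passed in either setting.

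Deviations of same-numbered arrays correlated at -0.33 to 0.28, so pairing by replicate number did not show in all comparisons. Between Wip1-/- and the group labelled Wip1-/- Atm+/- they correlated at 0.28, 0.17 and 0.04, and differently numbered arrays at -0.24 to 0.07. With 3 arrays a group these values cannot decide whether the numbers pair the arrays. With the replicate block Taf7l in Wip1-/- kept its change of 0.45 at a limma adjusted p of 0.0619, which left 1 factor passing there, 2 in the group labelled Wip1-/- Atm+/- against wild type and 1 against Wip1-/-. Signal over background limits the dim Crem probes, whose SE reached 0.31, and leaves Tbpl1 and Gtf2a1l unmeasured.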
